A study of Mus musculus with 4 samples.

Results

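The matrix proteases and their inhibitors were taken as all genes of the deposited tables whose symbols start with Adamts, Mmp or Timp followed by a number. That gave 45 of 32285 genes, made up of 19 Adamts, 22 Mmp and 4 Timp genes. They were counted in single-cell RNA sequencing of mouse ovaries, a study whose title asks about protection of the ovary from doxorubicin by AMH (anti-Müllerian hormone). The controls received PBS or saline. Of the 3 treated groups, 1 received doxorubicin (3 mg/kg), 1 received recombinant human AMH (0.75 mg/kg), and 1 received both agents at those doses, called doxorubicin+AMH. The mice were prepubertal, at postnatal day 25, and doxorubicin was given in 2 weekly doses. Ovaries were collected 4 hours after the last dose. Each group was 1 library made from 1 ovary of each of 5 pooled animals, and differences between animals were therefore not captured. No test of a treatment was made, since each group has 1 library: every difference compares libraries, and its counting interval covers counting error only. The strain and the route of dosing are not stated. Where 4 values follow each other, the control comes first, then the doxorubicin, the doxorubicin+AMH and the AMH library.

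Matrix metalloproteinases (MMPs) are zinc enzymes that cut collagens, gelatins and other proteins of the extracellular matrix, either secreted or anchored in the cell membrane. The related ADAMTS enzymes are secreted and carry thrombospondin repeats that hold them near the matrix, where some cut proteoglycans such as versican and others trim procollagens. The tissue inhibitors of metalloproteinases (TIMPs) bind the active site of these enzymes. In the ovary this system is known for the remodelling of the follicle wall as follicles grow and rupture, and ADAMTS1 is known as a progesterone-receptor target of the ovulatory follicle.

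The first sequences shown are promoters of 3 members that differed between the libraries with and without AMH in 1 granulosa cluster described below. Adamts17 was lower in both libraries with AMH, and Adamts2 and Mmp11 were higher in both. Adamts19 was also lower in both and its promoter is not shown, so the 3 are a part of such members. Each sequence shown runs 5′ to 3′ from 250 bases before to 50 bases after the start of the RefSeq gene in GRCm38.p6. The windows are chr7:66839485-66839784 on the plus strand for Adamts17, chr11:50601835-50602134 on the plus strand for Adamts2, and chr10:75932453-75932752 on the minus strand for Mmp11. The gene annotation used to find overlapping genes starts Mmp11 at chr10:75936496 instead, upstream of its window. RefSeq promoters were at hand for 31 of the 45 members. Capitals mark the GC-rich SMAD motif GGCGCC, searched because AMH signals through SMAD proteins.
Adamts17: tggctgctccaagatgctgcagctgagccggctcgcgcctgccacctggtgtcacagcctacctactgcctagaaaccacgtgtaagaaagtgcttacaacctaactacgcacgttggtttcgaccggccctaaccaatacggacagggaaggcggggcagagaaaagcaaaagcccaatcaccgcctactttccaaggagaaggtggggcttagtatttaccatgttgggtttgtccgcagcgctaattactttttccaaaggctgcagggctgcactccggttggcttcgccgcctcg
Adamts2: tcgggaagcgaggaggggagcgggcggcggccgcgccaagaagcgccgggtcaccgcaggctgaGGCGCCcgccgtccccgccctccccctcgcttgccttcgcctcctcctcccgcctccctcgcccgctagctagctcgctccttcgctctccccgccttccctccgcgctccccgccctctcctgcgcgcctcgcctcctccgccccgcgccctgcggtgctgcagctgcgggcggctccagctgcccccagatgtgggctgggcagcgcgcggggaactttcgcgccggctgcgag
Mmp11: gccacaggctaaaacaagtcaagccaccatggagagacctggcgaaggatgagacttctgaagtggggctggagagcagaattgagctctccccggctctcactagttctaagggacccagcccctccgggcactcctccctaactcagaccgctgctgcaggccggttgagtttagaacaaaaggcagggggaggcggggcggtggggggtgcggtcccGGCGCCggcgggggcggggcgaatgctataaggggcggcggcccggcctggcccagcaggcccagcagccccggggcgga
The motif GGCGCC is its own reverse complement. It was found once in the Adamts2 promoter, at -186 from the start, and once in the Mmp11 promoter, at -30, and not in the Adamts17 window. Of 32851 promoters of this length, 11.9% held it. The SMAD motif CAGAC, read on both strands (GTCTG on the other), was found once in the Mmp11 promoter, at -104, and in 49.6% of all promoters. The site CAAGGTCA of NR5A1 and NR5A2, orphan nuclear receptors of steroidogenic and granulosa cells, or its reverse complement TGACCTTG, was in none of the 3 windows and in 1.56% of all promoters. The base composition differed, with a GC content of 55.7% for Adamts17, 77.3% for Adamts2 and 67.0% for Mmp11. These matches describe the letters only.

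The libraries held 178279122, 143127593, 138647495 and 169170501 UMIs, where a UMI is a tag that counts each captured transcript once. After filtering, 28230 cells were left (7911, 5998, 6494 and 7827), in 33 clusters. Markers named 31 of the clusters and put them in 12 classes, each of which is "like" its type: no cluster met the marker rule for oocytes or luteal cells. Pairs of libraries shared 11 to 24 cell barcodes. Both clusters left unnamed came almost wholly from the doxorubicin library, which held 257 of their cells against 1, 1 and 4 in the other libraries. Oviduct-type epithelium, which is not ovarian, had 135, 1, 38 and 226 cells. Within a class, levels are counts per 1000000 (CPM): the class's UMIs of a gene per 1000000 UMIs of that class in that library. Fewer cells of a type and less RNA per cell cannot be told apart in such sums, but the ratio of a gene to all RNA of its class can be read. Ratios are log2 of CPM + 1, computed in each class for genes that averaged 10 CPM or more over the libraries, and a gene is counted as past the threshold at 1.5-fold or more. Fold changes of low genes are understated on this scale.

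Of the 45 members, 28 passed the filter on low values in at least 1 of the 6 classes with at least 50 cells in every library, and 7 passed in all 6. The other 17 passed in none. With the libraries pooled, 32 members reached 10 CPM in some named class. The 13 members below 10 CPM in every class were Adamts8, Adamts13, Adamts16, Adamts18, Adamts20, Mmp1b, Mmp3, Mmp7, Mmp10, Mmp20, Mmp21, Mmp24 and Mmp27. Adamts13, the protease of von Willebrand factor made mainly in liver, had 80 UMIs in all 4 libraries. These genes were low at this depth in these classes, which does not show that they are silent in the ovary. Adamts16, for one, had 1686 UMIs in all 4 libraries and a mean of 4.93 CPM in granulosa-like cells. The heatmap of levels by class shows how the expressed members divided among cell types.

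**Figure D1:**
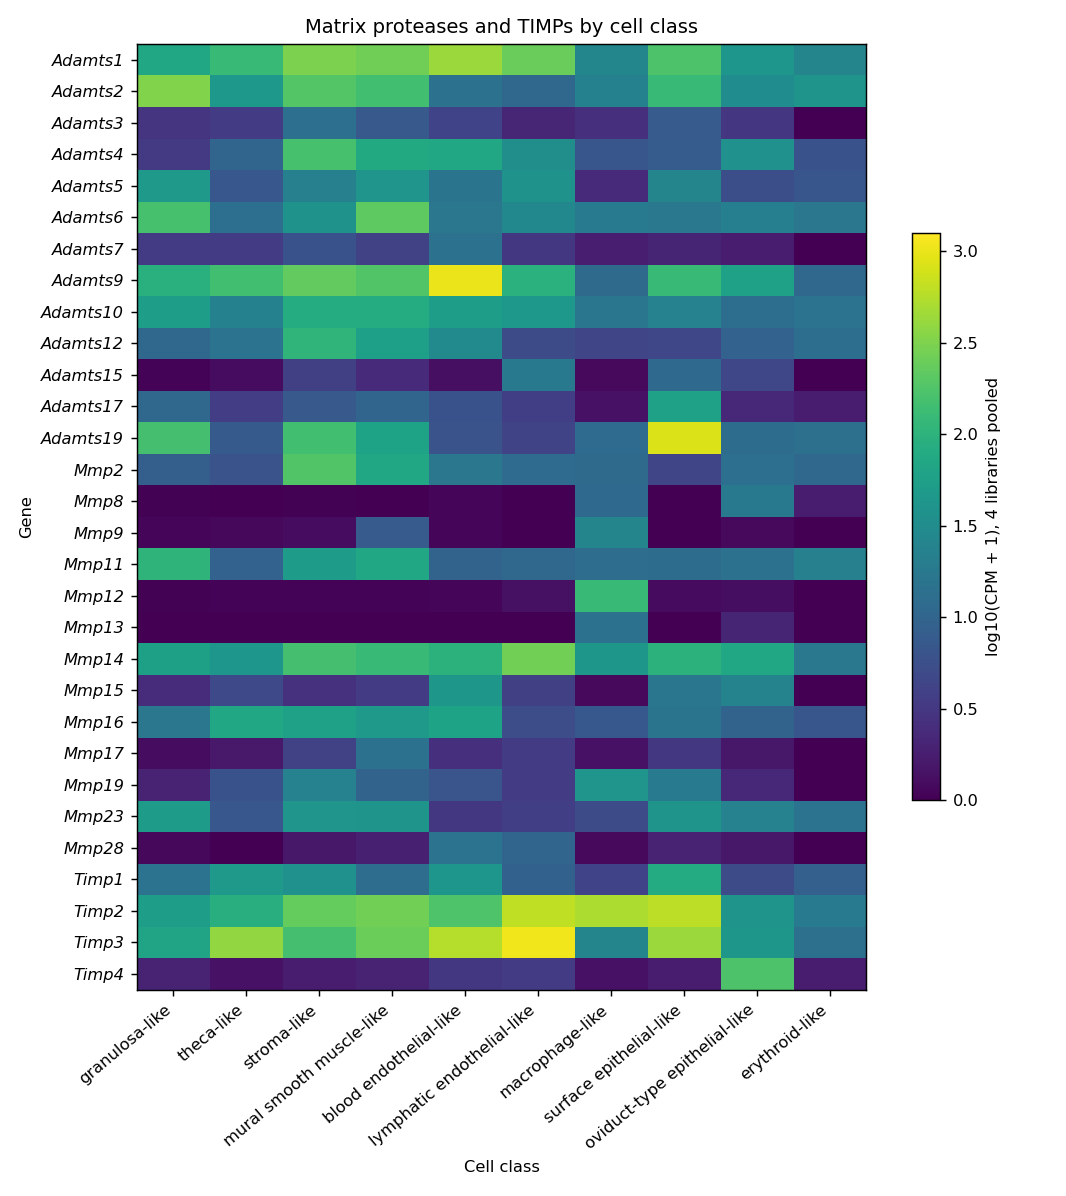
Levels of the 30 members that reached 10 CPM in at least 1 of the 10 classes drawn, as log10(CPM + 1) with the 4 libraries pooled; lymphocytes are not drawn. Timp2 and Timp3 are seen in all classes drawn, while Mmp12 is bright in the macrophage-like column and Timp4 in the oviduct-type column alone.

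Among the proteoglycanases, which cut versican and aggrecan, Adamts1 was highest in blood endothelial-like cells at 377, 365, 608 and 478 CPM. Stroma-like cells followed at 351, 294, 281 and 284 CPM, and mural (vessel-wall and smooth muscle) cells at 314, 253, 224 and 261 CPM. Its lowest class of the 6 was the macrophage-like cells, with a mean of 21.8 CPM. Blood endothelial-like cells were thus the class with most Adamts1 in every library, with the stroma close behind in the control. Adamts9, a close relative of the worm enzyme GON-1, was concentrated in the same vessel cells, at 978, 884, 1077 and 1198 CPM, and was seen at 243, 231, 205 and 215 CPM in stroma-like cells. Adamts4 was mainly a stromal gene at 183, 164, 146 and 126 CPM, and its mean in granulosa-like cells was 2.29 CPM. Adamts5 was highest in granulosa-like cells, at 60.7, 49.9, 34.0 and 35.9 CPM.

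Adamts2, which removes the N-propeptide of fibrillar procollagens, was most abundant in granulosa-like cells at 296, 285, 342 and 380 CPM. The stroma, which makes fibrillar collagen, held 203, 204, 166 and 160 CPM. The granulosa-like level was higher than the stromal one in each of the 4 libraries. The related Adamts3 and Adamts14 were low, and Adamts3 passed the filter in stroma-like cells alone. Adamts12, a protease of cartilage oligomeric matrix protein, was stromal at 122, 110, 74.1 and 112 CPM. Adamts6 was shared by mural cells (217, 243, 213 and 186 CPM) and granulosa-like cells (184, 146, 167 and 137 CPM). Adamts10, known for its link to fibrillin microfibrils, was at 92.8, 89.2, 75.0 and 67.6 CPM in stroma-like cells and close to that in mural cells.

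Adamts19 had its highest level in surface epithelial-like cells, the layer that covers the ovary, at 1043, 847, 938 and 495 CPM. That class held 102, 91, 33 and 63 cells, too few for its ratios to be compared. It was formed by a pair of clusters. The cluster led by Lgals7 and Upk3b (64, 52, 33 and 30 cells) held 1381, 1336, 938 and 970 CPM of Adamts19, and the cluster led by C3 and Slpi (38, 39, 0 and 33 cells) held 39.0, 35.9 and 40.6 CPM in the libraries that had it. The low class value of the AMH library thus went with a larger share of the second cluster. Within the first cluster, both libraries with AMH were also below both without it. The part of each in the class value was not tested. Adamts17 was at 54.7, 83.8, 36.9 and 20.6 CPM in the first cluster and at 48.8, 72.6 and 45.5 CPM in the second, without such a gap between them. Both genes were also expressed in granulosa-like cells, described below.

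Of the gelatinases, Mmp2 was stromal at 179, 200, 164 and 173 CPM, and it reached 304, 438, 332 and 303 CPM in the stroma-like cluster led by Dpt, Clec3b and C3. Mmp9 passed the filter in macrophage-like cells alone, at 32.9, 36.0, 10.4 and 20.6 CPM, from 51, 25, 11 and 33 UMIs. Mmp14, the membrane-bound enzyme that activates pro-MMP2, was highest in lymphatic endothelial-like cells at 245, 301, 313 and 287 CPM and was at 160, 163, 140 and 147 CPM in stroma-like cells. Mmp2 and Mmp14 thus overlapped in the stroma, whereas Mmp9 lay in another lineage. Mmp15, another membrane-bound enzyme, was endothelial at 49.6, 45.7, 33.5 and 34.5 CPM. Mmp16 was the one member with its highest level in theca-like cells, at 78.5, 69.4, 57.5 and 62.1 CPM. Mmp17, which is held by a lipid anchor, was highest in mural cells at 17.2, 15.6, 11.5 and 9.62 CPM.

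Macrophage-like cells carried the macrophage metalloelastase Mmp12, at 127, 101, 141 and 113 CPM. The share of these cells with an Mmp12 UMI was 9.04%, 4.55%, 6.45% and 7.65%, and 7.75%, 4.92%, 5.80% and 6.34% after each cell was thinned to 2000 UMIs. Erythroid-like cells, which should lack it, had none in any library, thinned or not. In the 60, 59, 75 and 41 cells unthinned, that allows shares of up to 5.00%, 5.08%, 4.00% and 7.32%. Their median depth was 5503.5, 6553, 5516 and 3928 UMIs, against 7232.5, 5782.5, 7776 and 6494 UMIs in macrophage-like cells. After thinning, 47, 54, 60 and 31 such cells allow up to 6.38%, 5.56%, 5.00% and 9.68%. The doxorubicin share lay below these limits thinned and unthinned, and the AMH share thinned, so with so few erythroid-like cells the shares are not set against a measured background there. The collagenase Mmp13 and Mmp19 were also highest there, at 29.7, 18.7, 0.943 and 3.75 CPM and at 32.9, 34.6, 81.1 and 21.9 CPM. The stromelysin Mmp3 was below 10 CPM in every class, yet the Dpt-led stroma-like cluster had 27.9, 26.7, 43.0 and 24.4 CPM. Granulosa-like cells were the class with most Mmp11 (stromelysin-3), at 95.7, 101, 94.3 and 115 CPM, and most Mmp23, at 43.6, 46.2, 58.3 and 53.3 CPM.

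The 4 inhibitors had separate distributions, drawn in the plot of TIMP levels by class and library. Timp3, the inhibitor that is bound to the matrix and also acts on ADAMTS enzymes, was highest in lymphatic endothelial-like cells at 1160, 1012, 986 and 1046 CPM. Blood endothelial-like cells held 554, 511, 624 and 622 CPM, theca-like cells 430, 380, 325 and 433 CPM, and granulosa-like cells 66.6, 64.9, 49.9 and 71.0 CPM. Theca-like cells thus stood above the neighbouring granulosa-like cells in every library. Timp2, which with MMP14 also takes part in activating pro-MMP2, was at 645, 632, 668 and 606 CPM in lymphatic endothelial-like cells and at 513, 349, 586 and 575 CPM in macrophage-like cells. In stroma-like cells Timp2 was at 239, 240, 197 and 240 CPM, and in granulosa-like cells at 57.1, 54.2, 41.1 and 57.2 CPM. Timp1 was highest in the surface layer: 68.9, 73.9, 144 and 88.0 CPM in surface epithelial-like cells and 44.7, 56.2, 43.2 and 38.3 CPM in theca-like cells.

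**Figure D2:**
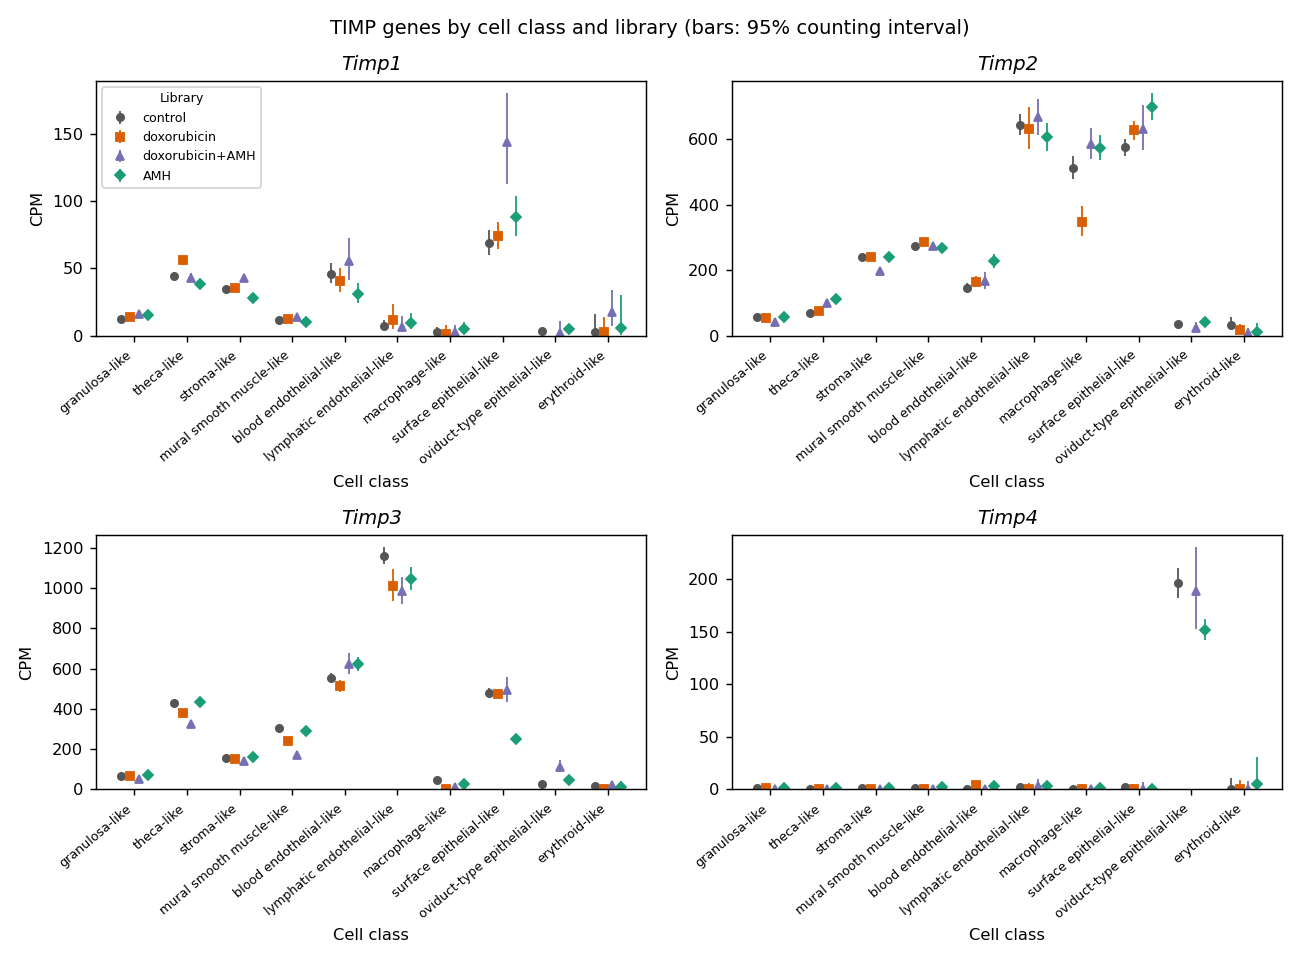
CPM of Timp1, Timp2, Timp3 and Timp4 by cell class, with 1 point per library and bars for the 95% counting interval. Timp3 in lymphatic endothelial-like cells lies between 986 and 1160 CPM, and Timp4 is above the baseline in oviduct-type epithelium alone.

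Timp4 was found in cells that are not ovarian. Oviduct-type epithelium held 196, 189 and 152 CPM in the control, doxorubicin+AMH and AMH libraries, and the doxorubicin library had 1 such cell. Within it, the ciliated-type cluster led by Tmem212 held 522 CPM in the control and 353 CPM in the AMH library, while the secretory-type cluster led by Ovgp1 held 7.77 and 12 CPM. In that ciliated-type cluster 80.0% of control cells and 61.4% of AMH cells had a Timp4 UMI, or 73.3% and 39.7% after thinning, at medians of 13793 and 15185 UMIs before thinning. Erythroid-like cells had 0% in the control and 2.44% in the AMH library, or 0% in both after thinning. The neutrophil collagenase Mmp8 was in the same cluster at 45.1 and 42.9 CPM.

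Over the 6 compared classes together there were 94 pairs of a member and a class past the filter. With doxorubicin against control, 2 pairs were past 1.5-fold higher and 9 lower, where 2.11% and 2.93% of all genes tested were. With doxorubicin+AMH against AMH, 6 were higher and 18 lower (all genes: 2.74% and 3.87%). With AMH against control, 13 were higher and 10 lower (3.55% and 4.85%), and with doxorubicin+AMH against doxorubicin 18 were higher and 10 lower (4.36% and 6.2%). The first pair of comparisons shares no library, and neither does the second. Each pair of the doxorubicin kind shares a library with each pair of the AMH kind. Most lower values of the doxorubicin comparisons came from blood endothelial-like and macrophage-like cells, the classes with fewest cells. Granulosa-like, theca-like and stroma-like cells had none in doxorubicin against control.

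**Figure D3:**
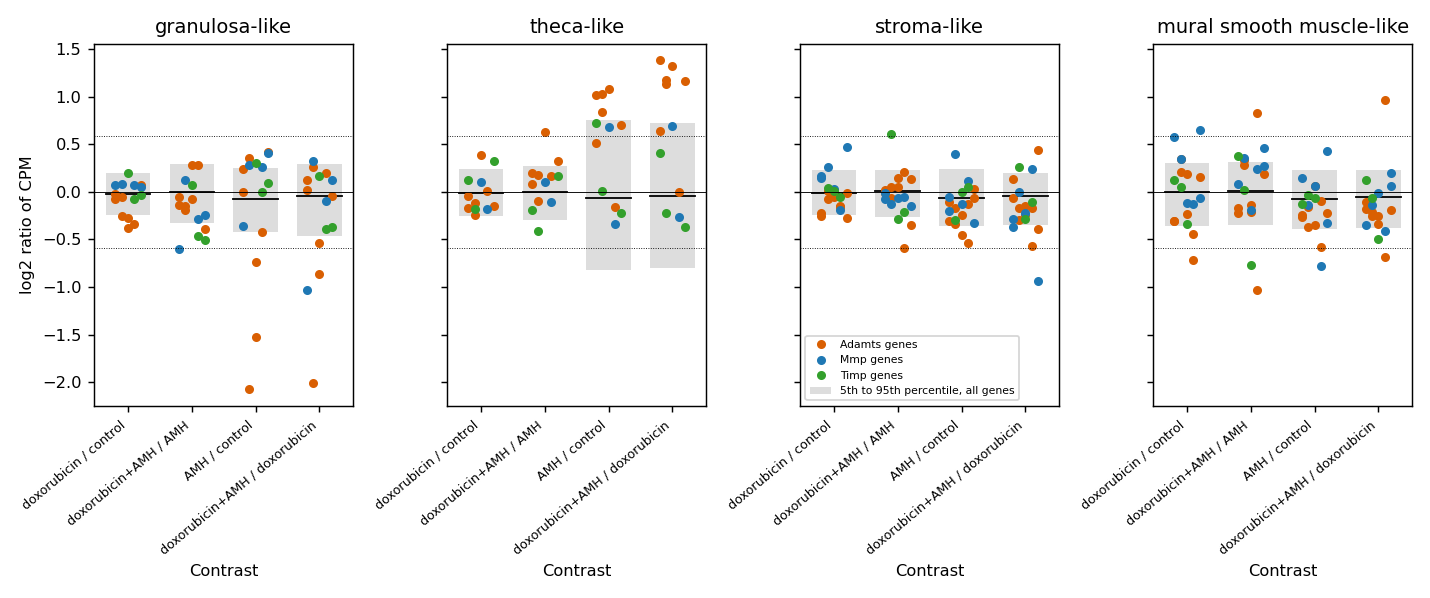
Log2 ratio of each member past the filter in granulosa-like, theca-like, stroma-like and mural cells, for the 4 comparisons of libraries; the grey band spans the 5th to 95th percentile of all genes of the class and dotted lines mark 1.5-fold. Adamts17 and Adamts19 lie low in both AMH comparisons in granulosa-like cells, and most members of the theca panel lie above 0 in both.

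Granulosa-like cells, which surround the oocyte and themselves make AMH, were the class of 2140, 1890, 2305 and 2997 cells with 15 members past the filter. The members' levels in the doxorubicin library were close to those of the control: 0 were past 1.5-fold higher and 0 lower (all genes: 0.159% and 0.181%), and the members' median was -0.04 against -0.02 for all genes. With doxorubicin+AMH against AMH, 0 were higher and 1, Mmp16, was lower (0.26% and 0.759%). In both doxorubicin comparisons together 0 were higher and 0 lower (0.0113% and 0.0566%). The members nearest to a shared direction were Mmp23, at 0.08 and 0.12, and Adamts17, at -0.25 and -0.19. In AMH against control 0 were higher and 3 lower (0.838% and 2.39%): Adamts5, Adamts17 and Adamts19. In doxorubicin+AMH against doxorubicin 0 were higher and 3 lower (1.22% and 3.15%): Adamts17, Adamts19 and Mmp16. Adamts17 and Adamts19 were the 2 members lower in both, where 1.56% of all genes were, and 0 were higher in both (0.419%). The libraries filled this class unevenly: the cluster led by Cntn4 and Amh, described below, held 372, 328, 175 and 253 of the granulosa-like cells, fewer with AMH, and Adamts17 passed the filter only through the libraries without AMH.

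Adamts19 in granulosa-like cells was at 248, 191, 105 and 85.8 CPM. Both libraries with AMH were below both libraries without it. The log2 ratio was -1.52 for AMH against control, with a 95% counting interval of -1.57 to -1.49, and -0.86 for doxorubicin+AMH against doxorubicin, with an interval of -0.911 to -0.822. Thinned to 2000 UMIs per cell, 26.6%, 24.1%, 15.5% and 13.5% of granulosa-like cells had an Adamts19 UMI, against 68.0%, 64.3%, 52.5% and 46.0% of cells unthinned. The median depth of all the granulosa-like cells was 22464, 23900.5, 20893 and 16218 UMIs. The share in erythroid-like cells was 2.13%, 1.85%, 1.67% and 3.23% thinned and 3.33%, 1.69%, 4.00% and 2.44% unthinned, so the granulosa share was well above this background. Thinning left out 51, 120, 97 and 120 shallower granulosa-like cells. Surface epithelial-like and stroma-like cells also express Adamts19. Their marker lists summed to 73.1, 89.0, 58.7 and 67.2 CPM (surface epithelial) and 57.3, 52.4, 44.7 and 57.8 CPM (stroma) in granulosa-like cells, and their part in the ratios was not tested. The ratios of Adamts17 and Adamts19 in both AMH comparisons stayed past 1.5-fold under each of the 11 alternatives run. Those include changes of the filter, which cannot move a ratio. Adamts17, with a class mean of 10.04 CPM, would not be counted at a filter of 20 CPM.

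The lower Adamts19 level was seen in every one of the 7 granulosa-like clusters. The log2 ratio ran from -1.65 to -1.05 for AMH against control, past 1.5-fold in all 7, and from -1.16 to -0.23 for doxorubicin+AMH against doxorubicin, past it in 4. The smallest ratio of each range was that of the Hsd17b1-led cluster, which rests on 9, 11, 8 and 16 UMIs, and its intervals (-2.38 to 0.25 and -1.76 to 1.20) span 0. In the other 6 clusters both intervals lay below 0. The Fst-led cluster held 286, 177, 150 and 126 CPM. The Inhbb-led cluster held 204, 165, 98.9 and 88.8 CPM, and the Kcnq5-led cluster 130, 121, 67.9 and 61.4 CPM. In all 3 the AMH library was the lowest and the control the highest. In stroma-like cells, where Adamts19 was at 144, 119, 162 and 147 CPM, neither AMH comparison was past 1.5-fold: the ratios were 0.03 and 0.44. In the Kcnk2-led stromal cluster, which had 571, 418, 627 and 596 cells, the ratios were -0.51 and -0.17, so the class sum and that cluster differ in direction. The difference between the classes was not tested.

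The granulosa-like cluster led by Cntn4, Slc18a2 and Amh had 372, 328, 175 and 253 cells, and 17 members passed the filter there. Amh itself, which is known from the granulosa cells of small growing follicles, was at 279, 406, 205 and 144 CPM in it. Among the granulosa-like clusters this was the one with most Adamts17 in the control and doxorubicin libraries, at 70.9, 57.6, 6.34 and 10.5 CPM, from 1049, 772, 35 and 76 UMIs. The log2 ratio was -2.64 for AMH against control (interval -3.11 to -2.42) and -3.00 for doxorubicin+AMH against doxorubicin (-3.71 to -2.69). In the Kcnq5-led cluster, for comparison, Adamts17 was at 3.20, 2.33, 3.80 and 3.36 CPM. The libraries with and without AMH did not overlap in the Cntn4-led cluster, while the Kcnq5-led values lay between 2.33 and 3.80 CPM. An unnamed cluster led by Amh and Wfdc10, left out of the class, held 79 cells of the doxorubicin library. Those cells had 31.3 CPM of Adamts17, 105 of Adamts19, 72.5 of Adamts2 and 66.3 of Mmp11. A non-coding gene, Gm17909, overlaps Adamts17 on the same strand, and how the deposited counts split reads between them is not stated.

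In the Cntn4-led cluster Adamts2 and Mmp11 were higher in both libraries with AMH. Adamts2 was at 226, 196, 411 and 498 CPM, a log2 ratio of 1.14 for AMH against control and 1.07 for doxorubicin+AMH against doxorubicin. Mmp11 was at 40.5, 47.2, 151 and 163 CPM, with ratios of 1.98 and 1.66. Adamts19 was at 477, 349, 177 and 152 CPM, with ratios of -1.65 and -0.97. These 4 genes were the members past 1.5-fold in both AMH comparisons there: 2 higher (2.4% of all genes) and 2 lower (4.06%). Adamts17 averaged under 10 CPM with AMH and passed the filter there only through the other libraries. In the Kcnq5-led cluster, the levels were already high in every library, with Adamts2 at 379, 379, 440 and 447 CPM and Mmp11 at 185, 199, 182 and 178 CPM.

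The shares of cells with a UMI also separated the libraries with AMH from those without it in the Cntn4-led cluster. Thinned to 2000 UMIs, 10.2%, 8.64%, 1.73% and 1.99% of its cells had an Adamts17 UMI, against 43.3%, 39.9%, 15.4% and 16.2% unthinned. Mmp11 was found in 8.63%, 8.33%, 27.2% and 25.1% of thinned cells (56.5%, 61.3%, 82.3% and 81.0% unthinned), and Adamts2 in 27.2%, 29%, 50.9% and 51.8% (87.6%, 89.3%, 94.9% and 94.1%). The median depth was 24956.5, 30221, 24772 and 19816 UMIs. In erythroid-like cells thinned Adamts17 was seen in none, Mmp11 in 0%, 0%, 3.33% and 3.23%, and Adamts2 in 0%, 3.70%, 8.33% and 0%. The summed granulosa markers of the cluster were 3215, 3110, 3005 and 2544 CPM, and the summed list of 10 genes known to respond to tissue handling, such as Fos and Jun, was 4220, 4234, 3787 and 3209 CPM. Other genes split with AMH in this cluster as the proteases did: Fshr, the FSH receptor, was at 105, 77.6, 32.4 and 33.9 CPM, Hsd3b1, a steroidogenic enzyme, at 410, 313, 114 and 141 CPM, and the summed theca markers at 542, 467, 248 and 253 CPM. Whether the makeup of the cluster, in cells of neighbouring stages, has a part in these ratios was not tested.

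**Figure D4:**
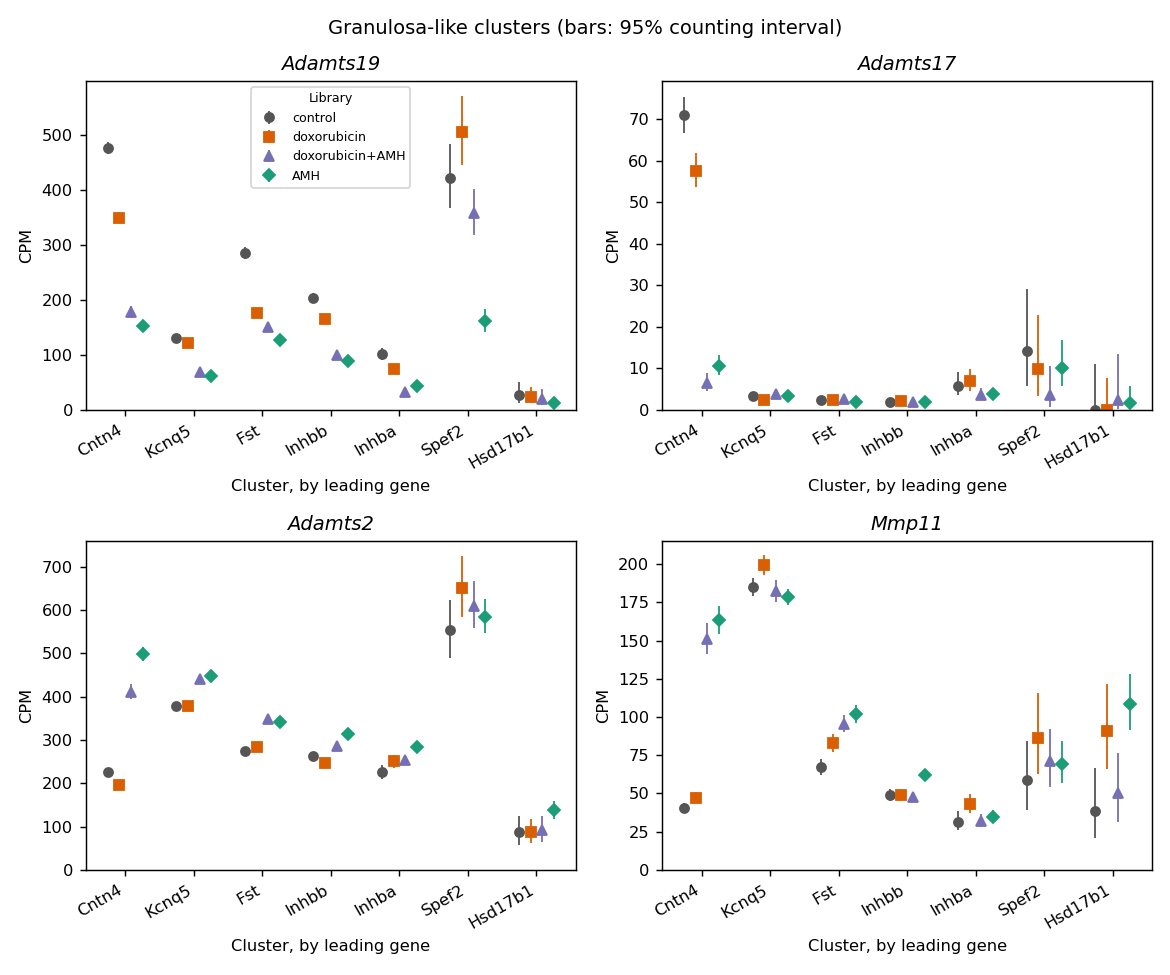
CPM of Adamts19, Adamts17, Adamts2 and Mmp11 in each granulosa-like cluster, with 1 point per library and bars for the 95% counting interval; clusters are named by their leading genes. In the cluster led by Cntn4 and Amh, Adamts17 is at 70.9 and 57.6 CPM without AMH and at 6.34 and 10.5 CPM with it, while Mmp11 and Adamts2 go the other way.

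Adamts5 in granulosa-like cells was at 60.7, 49.9, 34.0 and 35.9 CPM, with ratios of -0.74 for AMH against control and -0.54 for doxorubicin+AMH against doxorubicin; the second was short of 1.5-fold. Mmp16 was at 19.5, 20.5, 9.54 and 15 CPM, and the doxorubicin+AMH library was the lowest of the 4. Adamts1 was at 67.5, 66.3, 72.4 and 79.8 CPM and Mmp14 at 50.5, 52.3, 57.0 and 67.6 CPM, both without a ratio past the threshold. None of the 3 inhibitors past 10 CPM in granulosa-like cells, Timp1, Timp2 and Timp3, was past 1.5-fold in any comparison.

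Theca-like cells, the steroid-making layer outside the follicle, numbered 838, 590, 721 and 889, and 12 members passed the filter. The doxorubicin library resembled the control, with 0 higher and 0 lower (0.362% and 0.362% of all genes), and doxorubicin+AMH against AMH had 1 higher, Adamts4, and 0 lower (0.607% and 0.478%). That Adamts4 ratio was -1.05 with each library clustered alone. Both AMH comparisons had members higher and none lower. In AMH against control 7 of 12 were higher and 0 lower (7.48% and 9.08%), and in doxorubicin+AMH against doxorubicin 7 were higher and 0 lower (6.8% and 9.14%). The 6 in both were Adamts1, Adamts2, Adamts4, Adamts9, Adamts12 and Mmp14, where 5.13% of all genes were; 0 were lower in both, against 6.73% of all genes. No member was past 1.5-fold the same way in both doxorubicin comparisons (0.0233% of all genes higher and 0.0117% lower), and the nearest were Adamts4, at 0.39 and 0.63, and Timp3, at -0.18 and -0.41. The members' medians were 0.69 and 0.66, against -0.07 and -0.05 for all genes.

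Adamts1 in theca-like cells was at 86.5, 76.8, 202 and 176 CPM, with log2 ratios of 1.02 (interval 0.948 to 1.11) and 1.38 (1.30 to 1.48) in the AMH comparisons. Adamts9 was at 111, 99.8, 225 and 180 CPM, with ratios of 0.70 and 1.16. For both genes the libraries with AMH were above those without it. Adamts2 was at 31.7, 29.1, 65.2 and 57.7 CPM (0.84 and 1.14), Adamts12 at 10.1, 8.40, 20.3 and 21.7 CPM (1.03 and 1.18), and Adamts4 at 4.78, 6.57, 17.9 and 11.2 CPM (1.08 and 1.32). Adamts4 passed the filter only through the libraries with AMH, and Adamts12 averaged under 10 CPM without them, so their place in the count follows in part from the filter. When cells were classed by their own marker UMIs, the Adamts4 ratio of AMH against control turned to -0.18 and its other AMH ratio was 0.36. Adamts12 was then at 0.44 and 0.51. Adamts1, Adamts2 and Adamts9 stayed past 1.5-fold under each of the 11 alternatives run, which include changes of the filter that cannot move a ratio. The activator Mmp14 was at 31.7, 34.1, 55.5 and 51.7 CPM, with a ratio of 0.69 in each; the second was 0.55 with cells of at most 10% mitochondrial UMIs. Timp2 was at 68.2, 74.7, 99.6 and 113 CPM, past 1.5-fold for AMH against control alone, at 0.73. Timp3 did not share the pattern, with 430, 380, 325 and 433 CPM and AMH ratios of 0.01 and -0.23.

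The libraries filled this class from different clusters. The Lhcgr-led cluster held 28, 17, 548 and 717 theca-like cells, the Cyp17a1-led cluster 688, 444, 55 and 45, and a cluster led by Cyp17a1 and Enpep 122, 129, 118 and 127. Cyp17a1, the enzyme that commits theca cells to androgen synthesis, was at 1887, 1829, 318 and 138 CPM over the class. The summed theca markers were 14481, 13993, 5464 and 4530 CPM, and the summed stroma markers were 390, 434, 939 and 907 CPM. The handling genes summed to 8078, 8774, 10418 and 10883 CPM. These values moved with the AMH libraries as the proteases did, and their part in the ratios was not tested.

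The plot of theca-like clusters gives the members within each. In the Cyp17a1-led cluster Adamts1 was at 77.8, 73.3, 68.8 and 96.1 CPM, with AMH ratios of 0.30 and -0.09, both short of 1.5-fold. Adamts9 there was at 106, 94.6, 183 and 189 CPM (0.83 and 0.94), Adamts2 at 28.4, 26.0, 54.6 and 50.8 CPM (0.82 and 1.04), and Mmp14 at 27.4, 29, 45.9 and 52.8 CPM (0.92 and 0.64). The AMH library had 45 cells of it, under the 50 set for counting members past 1.5-fold, so these ratios are given with no count. The summed stroma markers of the cluster also moved the same way, at 196, 260, 524 and 524 CPM. Its summed theca markers were lower with AMH, at 15771, 15479, 13154 and 10078 CPM. Cyp17a1 was also lower, at 2067, 2035, 1564 and 533 CPM. Their part in the ratios was not tested. In the cluster led by Cyp17a1 and Enpep 0 of 14 members past the filter were past 1.5-fold in both AMH comparisons (0.798% of all genes higher and 0.75% lower). Adamts1 was at 130, 94.3, 147 and 142 CPM there, and Mmp14 at 62.2, 59.9, 60.5 and 64.4 CPM.

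In the Lhcgr-led cluster, which had 20 or more cells in 3 libraries, Adamts1 was at 371 CPM in the control, 236 in the doxorubicin+AMH and 195 in the AMH library. Mmp14 was at 57.4, 54.9 and 48.1 CPM in the same order, and Adamts9 at 221, 237 and 187 CPM. For these 3 genes the 28 control cells had levels near or above those of the libraries with AMH. Other members were lower in the control cells: Timp2 was at 70.7, 118 and 126 CPM and Timp3 at 216, 384 and 506 CPM, both with AMH against control intervals above 0. Adamts2 was at 44.2, 62.4 and 58.6 CPM, from 10 UMIs in the control, and its interval spans 0. The 28 cells thus did not place the control on 1 side of the libraries with AMH for all members.

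**Figure D5:**
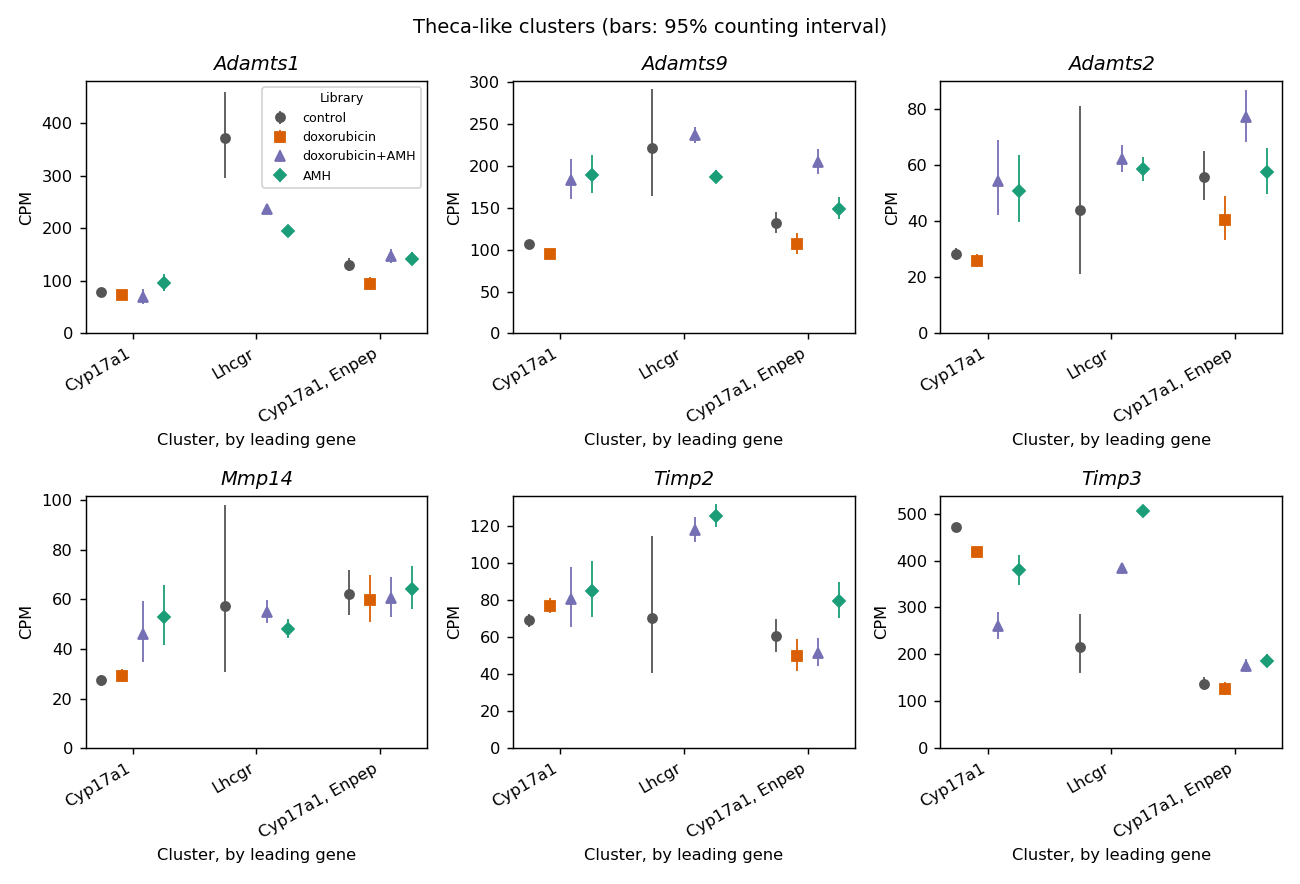
CPM of Adamts1, Adamts9, Adamts2, Mmp14, Timp2 and Timp3 in the 3 theca-like clusters, with 1 point per library that has at least 20 cells and bars for the 95% counting interval. Adamts1 lies between 68.8 and 96.1 CPM in the Cyp17a1-led cluster, while Adamts9 is at 106 and 94.6 CPM without AMH and 183 and 189 CPM with it.

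Stroma-like cells, the largest class, numbered 3087, 2227, 2241 and 2267, and 19 members passed the filter. Few were past 1.5-fold. Doxorubicin against control had 0 higher and 0 lower (0.664% and 0.24% of all genes), and AMH against control had 0 higher and 0 lower (0.621% and 0.936%). In doxorubicin+AMH against AMH 1 was higher and 1 lower (0.229% and 0.882%): Timp1, at 34.7, 35.7, 43.1 and 28 CPM, and Adamts12, at 122, 110, 74.1 and 112 CPM. In doxorubicin+AMH against doxorubicin 0 were higher and 1 lower (0.446% and 1.49%), Mmp19 at 22.9, 32.0, 16.2 and 18 CPM. No member had the same direction past 1.5-fold in both comparisons of a kind (all genes: 0.0653% higher and 0.0871% lower for doxorubicin, 0.152% and 0.207% for AMH). The nearest were Adamts12, at -0.15 and -0.59, and Timp1, at 0.04 and 0.60, for doxorubicin, and Mmp19, at -0.33 and -0.94, and Mmp16, at 0.11 and 0.24, for AMH. The Timp1 ratio was 0.54 with a pseudocount of 5 CPM. Mmp2, the main stromal gelatinase, had ratios between -0.29 and 0.16 in the 4 comparisons.

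Within the stroma, Adamts19 was at 751, 607, 539 and 527 CPM in the Kcnk2-led cluster, above the class level of 144, 119, 162 and 147 CPM in every library. In the Dpt-led cluster (298, 203, 135 and 263 cells), Timp3 was at 187, 59.3, 128 and 201 CPM. It was the 1 member of 22 lower past 1.5-fold in both doxorubicin comparisons there, at -1.64 and -0.65 (1.33% of all genes). Both libraries with doxorubicin lay below both without it, and the doxorubicin library was the lowest. Timp2 in that cluster was at 615, 668, 510 and 605 CPM.

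Mural cells numbered 998, 611, 802 and 928, with 18 members past the filter. In doxorubicin against control 1 was higher and 1 lower (0.542% and 2.01%): Mmp2, at 50.9, 80.3, 83.8 and 69.2 CPM, and Adamts19, at 70.6, 42.5, 84.1 and 46.9 CPM. In doxorubicin+AMH against AMH 1 was higher, Adamts19, and 2 were lower, Adamts5 and Timp3 (0.608% and 1.67%). AMH against control had 0 higher and 1 lower, Mmp17 (0.42% and 1.49%), and doxorubicin+AMH against doxorubicin had Adamts19 higher and Adamts5 lower, 1 each (0.453% and 1.58%). No member kept 1 direction past the threshold in both comparisons of a kind (all genes: 0.0663% higher and 1.04% lower for doxorubicin, 0.0663% and 0.685% for AMH). The nearest for doxorubicin were Adamts5, at -0.44 and -1.03, and Mmp14, at 0.35 and 0.35, and for AMH Mmp17, at -0.78 and -0.41, and Mmp2, at 0.43 and 0.06. With doublets left in, Mmp2 in doxorubicin against control was at 0.43 and Timp3 in doxorubicin+AMH against AMH at -0.52, both short of the threshold.

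Both the makeup of the mural class and the levels within its clusters differed between libraries for Adamts5 and Timp3. The Des-led cluster held 197, 19, 53 and 184 cells, few in both libraries with doxorubicin, which were also the libraries with fewest oviduct-type cells. It carried 120, 51.7 and 134 CPM of Adamts5 and 429, 160 and 541 CPM of Timp3 in the libraries other than doxorubicin. In the Acta2-led cluster of 687, 512, 685 and 676 cells, Adamts5 was at 23.8, 28.3, 17.5 and 20.7 CPM and Timp3 at 188, 172, 144 and 178 CPM. There the doxorubicin+AMH against AMH ratio was -0.23 for Adamts5, against -1.03 in the class, and -0.30 for Timp3, against -0.77. In the Des-led cluster the same ratio was -1.36 for Adamts5 (interval -1.97 to -0.839) and -1.75 for Timp3 (-2.08 to -1.45), with 53 and 184 cells. Adamts19 kept opposite directions in the Acta2-led cluster, at 93.0, 48.4, 92.0 and 60.5 CPM. The pericyte-type cluster led by Rgs5 had the highest mural Timp3, at 884, 806, 606 and 970 CPM, with a doxorubicin+AMH against AMH ratio of -0.68, and its Mmp17 was at 24.2, 18.1, 5.25 and 3.63 CPM.

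Blood endothelial-like cells were few in the library of doxorubicin+AMH (168, 112, 57 and 84 cells), and 17 members passed the filter. In doxorubicin against control 1 was higher and 3 lower (2.42% and 4.11%), and in doxorubicin+AMH against AMH 1 was higher and 7 lower (8.49% and 7.6%). Adamts2 and Adamts12 were the 2 lower in both (1.22%), and 0 were higher in both (0.383%). Adamts12 was at 31.2, 18.4, 17.8 and 43.4 CPM, with ratios of -0.73 and -1.24, and Adamts2 was at 12.3, 3.77, 14.7 and 23.3 CPM, from 42, 8, 14 and 52 UMIs. In AMH against control 5 were higher and 0 lower (5.17% and 8.77%), and in doxorubicin+AMH against doxorubicin 3 were higher and 2 lower (6.34% and 7.71%). Adamts2 and Adamts4 were the 2 higher in both (1.64%), and 0 were lower in both (1.72%). Adamts2 averaged under 10 CPM both over the libraries with doxorubicin and over those without AMH, so its place in these counts follows in part from the filter. Adamts4 was at 54.6, 29.2, 81.6 and 122 CPM, with ratios of 1.15 and 1.45. With doublets left in, the doxorubicin against control ratio of Adamts2 turned to 0.24 and that of Adamts12 in doxorubicin+AMH against AMH to 0.024. These genes are abundant in stroma-like cells, and the summed stroma markers in this class were 151, 79.2, 129 and 594 CPM, lowest in the doxorubicin and highest in the AMH library. Their part in the ratios was not tested. The leading endothelial proteases Adamts1 and Adamts9 had no ratio past 1.5-fold except Adamts1 in doxorubicin+AMH against doxorubicin, at 0.74.

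Macrophage-like cells numbered 188, 88, 93 and 183, with 13 members past the filter and wide counting intervals. In doxorubicin against control 0 were higher and 5 lower (8.83% and 11.1%), and in doxorubicin+AMH against AMH 2 were higher and 7 lower (6.32% and 12.1%). None was higher in both (1.38%). The 3 lower in both (2.79%) were Adamts1, at 41.3, 7.20, 12.3 and 26.2 CPM, Timp3, at 43.9, 2.88, 11.3 and 25.6 CPM, and Mmp13, at 29.7, 18.7, 0.943 and 3.75 CPM. Adamts1 rested on 64, 5, 13 and 42 UMIs, Timp3 on 68, 2, 12 and 41, and Mmp13 on 46, 13, 1 and 6. With the 2 UMIs of Timp3 in the doxorubicin library, the interval of its ratio to control was -7.00 to -2.02, and that of Mmp13 in doxorubicin+AMH against AMH was -7.51 to 1.05. In AMH against control 1 was higher and 6 lower (7.19% and 6.72%), and in doxorubicin+AMH against doxorubicin 7 were higher and 3 lower (11.4% and 14.9%). Adamts19, Mmp9 and Mmp13 were the 3 lower in both (2.14%), and 0 were higher in both (1.92%). In the doxorubicin calls Adamts1, Timp3 and Mmp13 averaged under 10 CPM in the libraries with doxorubicin, and in the AMH calls Adamts19 and Mmp13 did in the libraries with AMH. These passed the filter only through the libraries where they were high, so their place in the counts follows in part from the filter. Mmp13 had ratios of -2.69 and -3.34, with intervals of -4.51 to -1.76 and -9.72 to -1.58, and Mmp9 had -0.65 and -1.70. Adamts1 and Timp3 are genes of vessel and stroma-like cells, and the summed stroma markers in macrophage-like cells were 260, 161, 116 and 357 CPM, lower in both libraries with doxorubicin. Their part was not tested. Except for Mmp13, each of these macrophage-like calls turned its direction in some setting. For doxorubicin, Adamts1 turned to 0.12 against control with doublets left in and to 1.65 in doxorubicin+AMH against AMH with cells weighted equally, and Timp3 in the latter to 0.28 by marker UMIs and 0.43 without shallow clusters. For AMH, Adamts19 turned to 1.36 against control with doublets left in and to 0.27 in doxorubicin+AMH against doxorubicin at 10% mitochondrial UMIs, and Mmp9 in the latter to 0.064 with cells weighted equally.

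A list of 43 other genes of the pathway, made up of ADAMTS-like proteins, ADAM sheddases, procollagen C-proteinases and enhancers, other inhibitors, activators and substrates, was read in the same way. The filter was passed by 16 of them among granulosa cells and by 25 in the stroma, and none was past 1.5-fold in both comparisons of a kind in either class. The theca-like class had 20, and 6 were higher in both AMH comparisons, where 5.13% of all genes of the class were: Adamtsl1, Adam12, Spock2, Itgav, Has1 and Bgn. The small matrix proteoglycan Bgn was at 13.1, 17.2, 94.8 and 95.8 CPM, and the sheddase Adam12 at 2.77, 3.97, 27.9 and 26.2 CPM. The 3 lower in both (all genes: 6.73%) were Adam19, Pcolce and Bcan, with Pcolce, an enhancer of procollagen C-proteinase, at 272, 295, 143 and 129 CPM. Of these 9 genes, Adamtsl1, Adam12 and Has1 averaged under 10 CPM without AMH, and Adam19 and Bcan with it, so these 5 passed the filter only through the libraries where they were high. In the Cyp17a1-led theca-like cluster Pcolce was at 286, 312, 296 and 267 CPM, with no such difference, while Bgn was at 8.64, 13.1, 28.5 and 48.7 CPM.

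In mural cells 23 genes of the list passed the filter, and 2, Adamtsl1 and Pgr, were lower in both doxorubicin comparisons (all genes: 1.04%). Pgr, the progesterone receptor that induces Adamts1 at ovulation, was at 93.7, 14.7, 16.5 and 127 CPM. In the Des-led cluster it was at 390 CPM in the control, 217 in the doxorubicin+AMH and 576 in the AMH library, and in the Acta2-led cluster at 10.5, 8.55, 5.25 and 8.39 CPM. Most mural Pgr was thus in the Des-led cluster. Adamts1 was at 314, 253, 224 and 261 CPM over the mural class. In the Des-led cluster it was at 271 CPM in the control, 82.7 in the doxorubicin+AMH and 190 in the AMH library. A link between Pgr and Adamts1 was not tested. In blood endothelial-like cells 20 passed: Tll1, a procollagen C-proteinase, was higher in both doxorubicin comparisons (all genes: 0.383%) at 23.7, 44.3, 67.0 and 22.4 CPM, while the clearance receptor Lrp1 (25.7, 11.3, 33.5 and 65.4 CPM) and the substrate Fn1 (59.3, 30.2, 30.3 and 89.5 CPM) were lower in both (1.22%). Lrp1 was also higher (1.64%), and Adam12 lower (1.72%), in both AMH comparisons. In macrophage-like cells 17 passed; 3 of them, Adam19, Bgn and Fbn1, were lower in both doxorubicin comparisons (all genes: 2.79%), Fbn1 with under 10 CPM in both libraries with doxorubicin, and Runx2 was lower in both AMH comparisons (2.14%). The versican gene Vcan, at 4.52, 8.64, 19.8 and 9.99 CPM, was past 1.5-fold higher in both comparisons of each kind (1.38% for doxorubicin and 1.92% for AMH). It rests on 7, 6, 21 and 16 UMIs and passed the filter only through the doxorubicin+AMH library, and the counting intervals of all 4 ratios span 0. Bgn, Fbn1 and Fn1 are matrix genes also made by stroma, and the summed stroma markers, given above for both classes, were lower in both libraries with doxorubicin than in the paired library without it. Their part was not tested. A count of 1 to 3 of 17 to 23 genes rests on few genes, and the list gets no test.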

How the data were processed

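The deposited files hold 1 count table per group, with whole-number UMI counts per gene and cell barcode. Per the file headers, Cell Ranger 7.0.0 made them. Per the submitters' processing notes, R 4.2.0, Seurat 4.1.0 and the genome build mm10 were also used, and whether intronic reads were counted is not given in the sources used here. Per the labels' protocols, ovaries were dissociated with papain, collagenase A and a mechanical dissociator, and the 3′ end libraries (10x Genomics chemistry) were read on a NovaSeq. The counts were not normalized by the authors. The lowest deposited barcode had 500 or 501 UMIs, so cells had been called before deposit. The libraries held 9202, 7141, 7818 and 9478 deposited cells (control first, then doxorubicin, doxorubicin+AMH, AMH), with medians of 12593, 13575, 10995.5 and 9834.5 UMIs per deposited cell.

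A cell was kept with 1000 UMIs or more if no more than 20% of them were mitochondrial. The highest Scrublet scores were removed at 0.8% per 1000 cells (677, 408, 489 and 719 cells; scanpy 1.11.5). Clustering was joint over the libraries, with no batch correction, and used 2000 variable genes (members, pathway list and mitochondrial genes left out), 30 components, 20 neighbours and Leiden resolution 1.0 (scikit-learn 1.9.0, leidenalg 0.10.2, igraph 0.11.9). A cluster was named when at least 3 markers and 50% of a class's list lay 1 log2 unit above the median cluster and in 10% of cells. It stayed unnamed when another class led its top 10 genes, when it was shallow (under 33.3% of the library median) with no marker there, or when over 90% of its cells came from 1 library. These thresholds were set after the data were seen.

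UMIs were summed per class and library and divided by the class total (scipy 1.17.1, numpy 2.4.6). Intervals are exact Poisson for levels and exact binomial for ratios, at 95%, with no pseudocount, so a ratio with the pseudocount of 1 CPM can lie outside its interval. Classes needed 50 cells in every library, and values by cluster 20. The code was checked on simulated data. Named with values were the 4 TIMPs, Adamts1, Mmp2 and Mmp14, members with a mean of 50 CPM in some class, members past 1.5-fold in 1 direction in both comparisons of a kind (where none, the highest and the lowest), and pathway genes by the same rule. Other members, such as Mmp3 or Mmp8, were chosen after their values were seen. The members and all lists were chosen with earlier results of these data known. The alternatives were other pseudocounts, filters, folds, scaling, cell filters, doublets left in, classes by marker UMIs, and libraries clustered alone. Antisense genes overlap several members, among them Timp1, Timp3 and Adamts4, and the strand setting of the counting is not stated. Cep295nl overlaps Timp2, and Gm17909 Adamts17, on the same strand. A set of promoters was read from RefSeq tables of GRCm38.p6.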

Additional observations from a re-analysis of the deposited data

Results flagged for a closer look

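In some classes the same contrast went past 1.5-fold in opposite directions in the 2 library pairs, and in each case the difference between the pairs was not tested. Mmp2 in blood endothelial-like cells had a log2 ratio of 0.64 for doxorubicin against control and -1.20 for doxorubicin+AMH against AMH. Adamts19 in mural cells had -0.72 and 0.83 in those comparisons. For AMH, the pair without and the pair with doxorubicin gave macrophage-like ratios of -0.64 and 0.69 for Adamts1, -0.81 and 1.09 for Mmp8, and -0.76 and 1.67 for Timp3. The blood endothelial-like and macrophage-like values rest on 2 to 68 UMIs per library. Several of these directions turned in other settings. The -1.20 of Mmp2 turned to 0.20 with doublets left in and 0.10 with cells weighted equally. The 0.69 of Adamts1 turned in 4 settings (-0.31 to -1.50), and its -0.64 to 0.31 with doublets left in. The 1.67 of Timp3 turned to -0.63 by marker UMIs. The ratios of Adamts19 in mural cells and of Mmp8 in macrophage-like cells were not run in other settings.

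Signal was also found in classes outside the comparisons. With the libraries pooled, surface epithelial-like cells held 862 CPM of Adamts19 and 57.8 CPM of Adamts17, and oviduct-type epithelium held 170 CPM of Timp4.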

How the results depend on the processing

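The ratios run under the alternatives were those of the TIMPs, Adamts1, Mmp2, Mmp14 and members past 1.5-fold in both comparisons of a kind. Of 57 such ratios past 1.5-fold, 29 stayed past it with doublets left in, 41 with cells weighted equally and 42 by marker UMIs. With a pseudocount of 5 CPM 47 stayed, with libraries clustered alone 48, and in the other settings 53 to 57. A changed filter leaves each ratio as it is, so the 57 under the filter settings were fixed in advance. The counts of member and class pairs past 1.5-fold follow. They are out of 94 pairs in the main setting, 241 with no filter, 74 at 20 CPM and 92 to 100 in the other settings. The share of all genes past 1.5-fold was not computed for these settings, so the counts have no background beside them. With no filter on low values doxorubicin against control had 10 higher and 28 lower, and the others 12 and 40 (doxorubicin+AMH against AMH), 31 and 21 (AMH against control) and 40 and 22 (doxorubicin+AMH against doxorubicin). At 20 CPM, doxorubicin against control had 1 higher, doxorubicin+AMH against AMH 9 lower, AMH against control 8 higher and 5 lower, and doxorubicin+AMH against doxorubicin 4 lower. At 2-fold the 4 comparisons had 0 and 4, 2 and 8, 7 and 3, and 11 and 6. With a pseudocount of 5 CPM, doxorubicin against control had 1 higher. With doublets left in it had 4 higher and 2 lower, AMH against control 5 lower and doxorubicin+AMH against doxorubicin 11 higher. With classes by marker UMIs the values were 4 higher, 11 lower, 8 higher and 16 lower in the same order of comparisons. With each library clustered alone, doxorubicin+AMH against AMH had 3 higher. Of 96 such counts 31 moved beyond 1.5 times.

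The members' median in macrophage-like cells turned to 0.022 for doxorubicin+AMH against AMH by marker UMIs, and for doxorubicin+AMH against doxorubicin to -0.69 with doublets and -0.40 by marker UMIs. Directions also turned for single genes. In blood endothelial-like cells with doublets left in, Adamts2 and Adamts4 (doxorubicin against control) became 0.24 and 0.61, and Adamts12 and Mmp2 (doxorubicin+AMH against AMH) 0.024 and 0.20; Mmp2 was 0.10 with cells weighted equally. In macrophage-like cells, Adamts1 with doublets became 0.12 for doxorubicin against control, 0.31 for AMH against control, and -0.80 for doxorubicin+AMH against doxorubicin. The last was also -1.50 by marker UMIs, -0.31 with libraries alone and -0.52 without shallow clusters, and doxorubicin+AMH against AMH was 1.65 with equal weights. Adamts19 became 0.13 without shallow clusters (doxorubicin+AMH against AMH), 1.36 with doublets (AMH against control) and 0.27 at 10% mitochondrial UMIs (doxorubicin+AMH against doxorubicin). Mmp9 with equal weights became 0.78 and 0.064 in the comparisons with doxorubicin+AMH. Timp3 became 0.28 by marker UMIs and 0.43 without shallow clusters (doxorubicin+AMH against AMH), and -0.63 by marker UMIs (doxorubicin+AMH against doxorubicin). In theca-like cells Adamts4 became -1.05 with libraries alone (doxorubicin+AMH against AMH) and -0.18 by marker UMIs (AMH against control). The cause was not tested. Of the ratios past 1.5-fold in granulosa-like, stroma-like or mural cells, none of those run under the alternatives turned its direction. The ratios of Adamts5 and Mmp16 in granulosa-like cells and of Adamts12 and Mmp19 in stroma-like cells were not run. Neither were those of Adamts5, Adamts19 and Mmp17 in mural cells. Median-of-ratios scaling moved the median of all genes by over 0.1 in granulosa-like AMH against control alone (0.11). No paired analysis was possible because each group has 1 library.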
